A study of Mus with 6 samples.

Results

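The brakes on mRNA described here are 10 genes of the ZFP36, BTG, Regnase, Roquin and CCR4-NOT families, measured in activated mouse CD4+ T cells with or without neutralization of VEGF-B. They were taken by symbol (*Zfp36*, *Zfp36l1*, *Zfp36l2*, *Btg1*, *Btg2*, *Zc3h12a*, *Rc3h1*, *Rc3h2*, *Cnot1* and *Cnot8*) from the 10995 protein-coding genes of the deposited table. All 10 were listed once and passed the filter of a mean of at least 1 FPKM, which left 8816 genes in all. The set was selected on measured values in part, namely the FPKM of *Btg1* and *Btg2*, which lay on opposite sides of IgG in this comparison. The values of its members are therefore a description and carry no test.

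Naive CD4+ T cells from the spleens of wild-type mice were activated for 3 days. The stimuli were anti-CD3 at 5 μg/mL, anti-CD28 at 2 μg/mL and the growth factor IL-2 at 100 U/mL. During this time they were given a neutralizing goat antibody to VEGF-B or normal goat IgG, both at 1 μg/mL, and 3 libraries of total RNA were sequenced for each. All 6 libraries thus share the activation, and no resting cells enter the comparison. The age of the mice, and whether the libraries of a group came from separate animals or cultures, are not given in the sources used here, so that the spread between libraries may be technical.

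A T cell at rest keeps its activation and cytokine transcripts scarce partly by destroying them. ZFP36 proteins bind AU-rich elements in the 3′ end of transcripts, Roquin proteins bind stem-loops there, and both recruit the CCR4-NOT complex, which shortens the poly(A) tail so that decapping and digestion can follow. Regnase-1 is an endonuclease that cuts such stem-loops, and BTG proteins are adaptors that bring the CCR4-NOT deadenylases to transcripts and are associated with quiescence. T cell receptor signaling releases these brakes, in part through the protease MALT1, which cleaves Regnase-1 and the Roquins, and through kinases that phosphorylate ZFP36 proteins.

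The FPKM of the listed genes summed to between 260058 and 276622 in a library. Library depth is unknown, as FPKM (fragments scaled by transcript length and library size) hold no read counts. The median FPKM of the tested genes was 6.20 to 7.08 in the IgG libraries, highest in replicate 2, and 5.43 to 5.67 with anti–VEGF-B. *Cd4* was at 64.0 to 74.6 FPKM and *Cd8a* at 0 to 0.182, while *Cd8b1*, the other CD8 T cell marker, was at 2.27 to 4.51. The 9 markers of CD4+ T cells were all listed and summed to 521 to 584 FPKM with IgG against 519.5 to 559 with anti–VEGF-B. Of these 3 fell and 0 rose in limma, where 23.8% and 4.87% of all tested genes did. The falls were *Cd3e* (log2 difference -0.51, adjusted p = 0.0197 from limma), *Trat1* (-0.44, 0.0116) and *Cd5* (-0.38, 0.0343), the last 2 named after their values were seen. *Cd3g* (-0.43) and *Cd247* (-0.13) were lower too, while *Cd28* (0.12), *Cd3d* (0.10), *Cd4* (0.034) and *Lck* (0.0041) were slightly higher. The part of these markers in the differences of the 10 genes was not tested. Of 6 B cell markers 1 was listed, and the summed 4 listed markers of 8 for myeloid cells reached 20.6 FPKM in an IgG library against 4.69 to 5.85 in the anti–VEGF-B libraries. This was IgG replicate 3, with *Lyz2* at 16.4 FPKM against 3.26 to 4.19 in the other 5 libraries. Without it all 10 genes kept the sign of their difference, and *Btg1*, *Btg2* and *Zfp36l1* were farther from IgG (log2 differences of 0.38, -0.65 and -0.70). In such bulk RNA, fewer cells of a type and less RNA per cell cannot be told apart. The median log2 difference of all tested genes was -0.15 (anti–VEGF-B minus IgG, on log2 of FPKM + 1), and 71.2% of genes were lower with anti–VEGF-B. Some differences are also given relative to this median.

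Of the 10 genes, 2 had all anti–VEGF-B libraries above all IgG libraries (*Btg1* and *Zfp36l2*), 6 had them all below, and 2 overlapped (*Zfp36* and *Rc3h1*). Among all tested genes the groups did not overlap for 49% (10.5% higher and 38.5% lower), and as the comparison chose the members, nothing is read from their counts. The median log2 difference of the members was -0.20. Among these members, *Btg1* and *Zfp36l2*, the most abundant of their families, were higher with anti–VEGF-B, while *Btg2* and *Zfp36l1* were lower. This did not hold for every scarcer relative, as *Zfp36* overlapped and *Btg3*, outside the set, was higher (log2 difference 0.44).

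**Figure D1:**
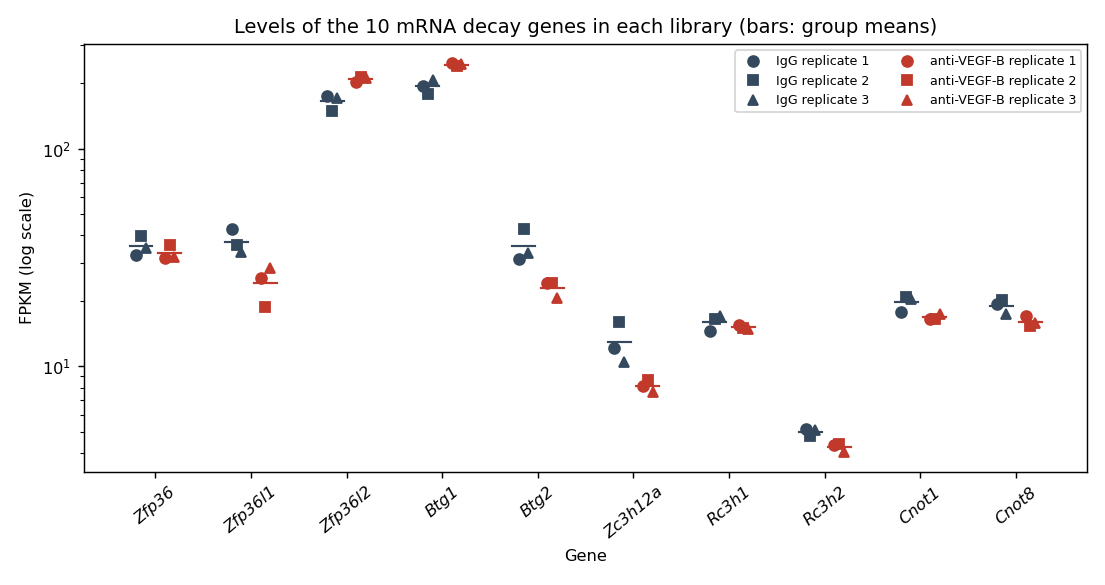
FPKM (log axis) of the 10 genes in each of the 6 libraries, with IgG in dark blue, anti–VEGF-B in red, a symbol for each replicate number and bars for the group means. *Btg1* and *Zfp36l2* lie at 149.8 FPKM or more in all libraries, while *Rc3h2* lies near 4 to 5 FPKM.

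*Btg1* (ENSMUSG00000036478.8, chromosome 10 of GRCm38, 96617006 to 96622809, plus strand) encodes an antiproliferative adaptor of the CCR4-NOT deadenylases. It was the most abundant of the 10 genes, with 195, 180 and 208 FPKM in the IgG libraries and 247, 239 and 245 with anti–VEGF-B. The lowest anti–VEGF-B library lay above the highest IgG library. The means were 194 ± 14.3 and 244 ± 4.11 FPKM (SD, n = 3 each), a level 25.5% higher and a log2 difference of 0.33 (0.48 above the median of all genes). RefSeq names related genes, *Btg1b* and *Btg1c* (also *Btg1-ps1* and *Btg1-ps2*), on chromosome X. Reads could have been split among these copies, and the level of *Btg1* is uncertain to that extent.

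*Btg2* (ENSMUSG00000020423.6, chromosome 1, 134075170 to 134079120, minus strand), its relative and a gene known to be induced by p53, was at 31.2, 43.0 and 33.1 FPKM with IgG and at 24.3, 24.3 and 20.5 with anti–VEGF-B. Here the order was the opposite, with every anti–VEGF-B library below every IgG library. IgG replicate 2 stood above the other 5 libraries. The means were 35.8 ± 6.33 and 23.0 ± 2.16 FPKM, a level 35.6% lower with anti–VEGF-B and a log2 difference of -0.60, which was -0.47 without IgG replicate 2. Among the log2 differences of all tested genes that of *Btg1* stood at percentile 95.6 and that of *Btg2* at percentile 6.62.

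The ratio of the 2 genes within a library is left as it is by any scaling that multiplies a library by 1 factor, which quantile normalization does not. There were 6.26, 4.18 and 6.28 *Btg1* FPKM per *Btg2* FPKM with IgG, and 10.2, 9.85 and 11.9 with anti–VEGF-B. The log2 of this ratio differed by 0.96 between the group means, and by 0.76 to 1.05 when any library was left out. The set was chosen in part on the opposite directions of these 2 genes, so a difference in their ratio follows from that choice. *Btg2* made up 15.6 ± 3.20% of the summed *Btg1* and *Btg2* FPKM with IgG but 8.63 ± 0.794% with anti–VEGF-B. Because *Btg1* dominates, the sum was higher with anti–VEGF-B, at 267 ± 4.04 against 230.1 ± 9.91 FPKM.

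**Figure D2:**
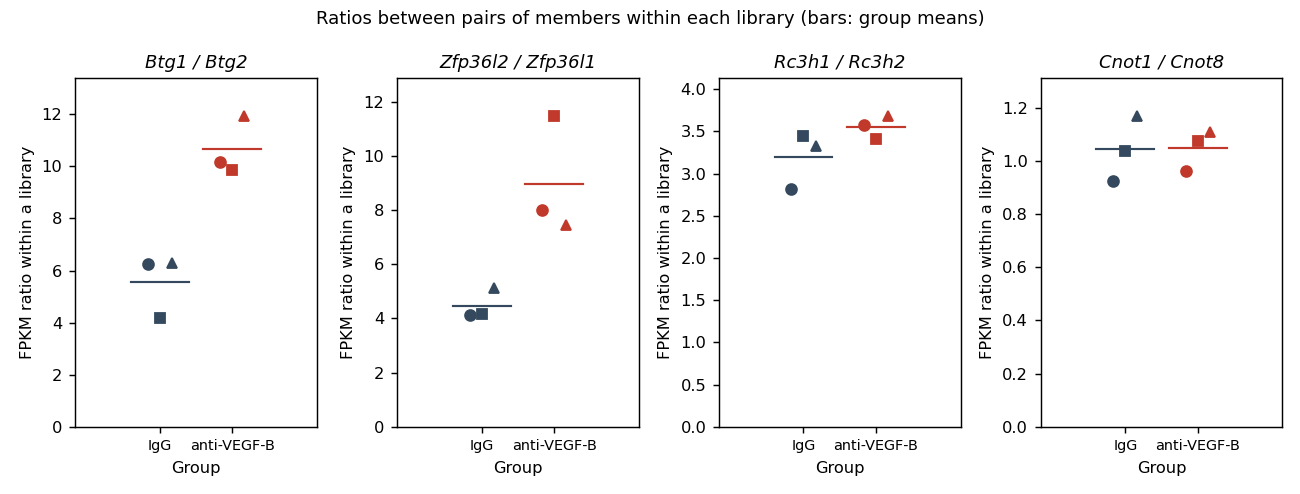
Ratios of FPKM between pairs of members within each library, from 0 upward, for IgG (dark blue) and anti–VEGF-B (red), with a symbol for each replicate number and bars for the group means. The groups lie apart for *Btg1* to *Btg2* (at most 6.28 against at least 9.85) and *Zfp36l2* to *Zfp36l1* (at most 5.12 against at least 7.44), and overlap for *Rc3h1* to *Rc3h2* and *Cnot1* to *Cnot8*.

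The 3 ZFP36 genes encode CCCH zinc finger proteins that bind AU-rich elements and promote deadenylation. *Zfp36l2* (ENSMUSG00000045817.8, chromosome 17, 84183931 to 84187947, minus strand) was by far the most abundant, with 176, 150 and 172 FPKM in the IgG libraries and 203, 214 and 211 with anti–VEGF-B. The groups did not overlap, and IgG replicate 2 was the lowest library. Its means were 166 ± 14.1 and 210 ± 5.61 FPKM, 26.4% higher with anti–VEGF-B (log2 difference 0.34). Without IgG replicate 2 the difference was 0.27.

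*Zfp36l1* (ENSMUSG00000021127.7, chromosome 12, 80107754 to 80113013, minus strand) was at 42.8, 36.0 and 33.6 FPKM with IgG and at 25.4, 18.7 and 28.4 with anti–VEGF-B. All anti–VEGF-B libraries were below the IgG libraries, and replicate 2 was the lowest of them. The means of 37.5 ± 4.76 and 24.1 ± 4.98 FPKM gave a level 35.5% lower, with a log2 difference of -0.63 that was -0.46 without anti–VEGF-B replicate 2. RefSeq also names a related gene, *Zfp36l1-ps*. Reads could have been split between the copies, so the level of *Zfp36l1* is uncertain to that extent. *Zfp36* (ENSMUSG00000044786.6, chromosome 7, 28376784 to 28380253, minus strand), which encodes tristetraprolin, was at 32.4, 39.8 and 35.0 FPKM with IgG, against 31.4, 36.0 and 31.9 with anti–VEGF-B. These groups overlapped, and the log2 difference of -0.10 was smaller than the spread within the groups (SD 0.13) and became 0.097 with median centring.

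Like *Btg1*, *Zfp36l2* set the sum of its family. *Zfp36l2* held 69.3 ± 2.63% of the summed FPKM of the 3 genes with IgG and 78.5 ± 0.993% with anti–VEGF-B, while *Zfp36l1* held 15.7 ± 1.56% and 9.05 ± 1.86%. The sum was 239 ± 12.8 FPKM in the IgG libraries and 267 ± 5.89 FPKM with anti–VEGF-B. There were 4.12, 4.16 and 5.12 *Zfp36l2* FPKM per *Zfp36l1* FPKM with IgG, and 8.02, 11.5 and 7.44 with anti–VEGF-B. The difference in the log2 of this ratio (0.99) was close in size to that of the BTG pair. This pair also sets a member that was higher against one that was lower, with earlier results known. The difference follows from that choice, and nothing is read from the likeness of the 2 pairs.

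*Zc3h12a* (ENSMUSG00000042677.7, chromosome 4, 125118423 to 125127840, minus strand) encodes Regnase-1. It was at 12.1, 16.1 and 10.5 FPKM with IgG and at 8.13, 8.67 and 7.59 with anti–VEGF-B. Its IgG libraries were the most variable among the 10 genes (coefficient of variation 22.2%), yet all lay above the anti–VEGF-B libraries. The means were 12.9 ± 2.87 and 8.13 ± 0.538 FPKM, 36.9% lower (log2 difference -0.59). The difference was -0.43 without IgG replicate 2 and -0.72 without IgG replicate 3, the library with more *Lyz2*.

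The Roquin genes differed less. *Rc3h1* (ENSMUSG00000040423.10, chromosome 1, 160906418 to 160974978, plus strand), which encodes Roquin-1, was at 14.5, 16.5 and 17.0 FPKM with IgG and 15.5, 15.0 and 14.8 with anti–VEGF-B. The groups overlapped and the log2 difference was -0.071. *Rc3h2* (ENSMUSG00000075376.10, chromosome 2, 37370069 to 37422903, minus strand), which encodes Roquin-2, was the scarcest member, at 5.14, 4.78 and 5.11 FPKM with IgG and 4.35, 4.41 and 4.03 with anti–VEGF-B. Its groups lay apart, with a log2 difference of -0.19 that was -0.040 once the median of all genes was subtracted.

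*Cnot1* (ENSMUSG00000036550.16, chromosome 8, 95719451 to 95807464, minus strand) encodes the scaffold of the CCR4-NOT complex and *Cnot8* (ENSMUSG00000020515.13, chromosome 11, 58104153 to 58118594, plus strand) a catalytic deadenylase to which BTG proteins bind. *Cnot1* was at 17.8, 20.9 and 20.4 FPKM with IgG and 16.5, 16.5 and 17.5 with anti–VEGF-B. *Cnot8* was at 19.3, 20.1 and 17.4 FPKM with IgG and 17.1, 15.4 and 15.8 with anti–VEGF-B. For both, every anti–VEGF-B library was below every IgG library, by a narrow margin. *Setd6* overlaps *Cnot1* on the other strand (mean 0.728 and 0.910 FPKM), and how strand was used in counting is not given in the sources used here. Their log2 differences of -0.21 and -0.22 became -0.061 and -0.070 when that median was subtracted, and the ratio of *Cnot1* to *Cnot8* was 1.04 ± 0.123 with IgG and 1.05 ± 0.0773 with anti–VEGF-B.

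**Figure D3:**
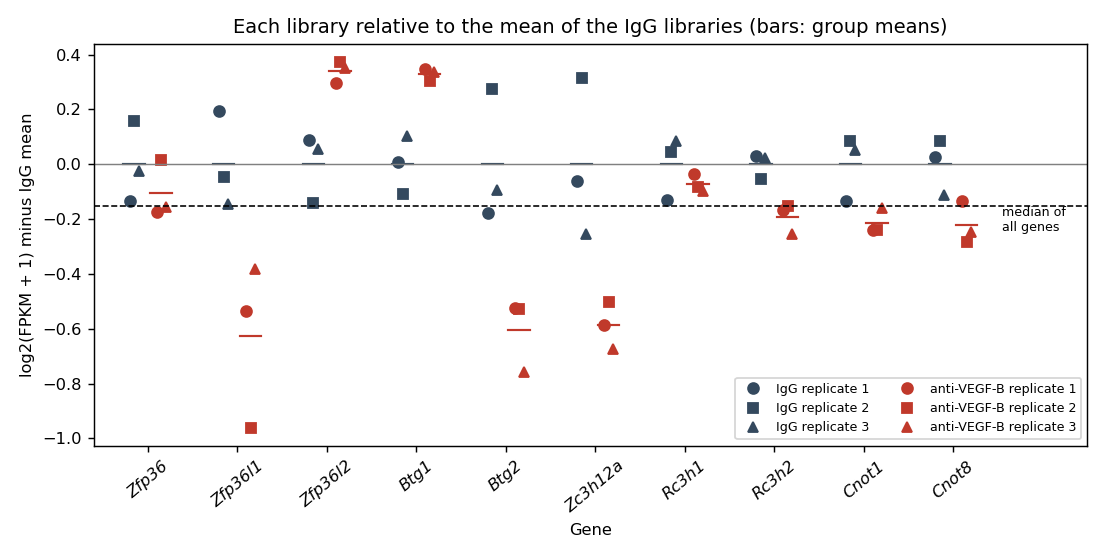
log2(FPKM + 1) of each library minus the mean of the IgG libraries for the 10 genes, with IgG in dark blue, anti–VEGF-B in red, bars for the group means and a dashed line at the median difference of all tested genes (-0.15). *Zfp36l2* and *Btg1* lie above the IgG libraries, *Zfp36l1*, *Btg2* and *Zc3h12a* lie well below the dashed line, and the other 5 have means within 0.1 of it.

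The scaling between libraries sorted the 10 genes. *Btg1* and *Zfp36l2* remained higher with anti–VEGF-B, and *Btg2*, *Zfp36l1* and *Zc3h12a* lower, after quantile normalization, median centring and scaling to *Actb*. The log2 differences under the 3 scalings were 0.20, 0.53 and 0.40 for *Btg1*, 0.24, 0.54 and 0.41 for *Zfp36l2*, and -0.54, -0.40 and -0.54 for *Btg2*. Those of *Zfp36*, *Rc3h1* and *Rc3h2* changed sign under at least 1 of them. *Cnot1* and *Cnot8* stayed lower, but at only -0.012 and -0.021 after median centring.

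**Figure D4:**
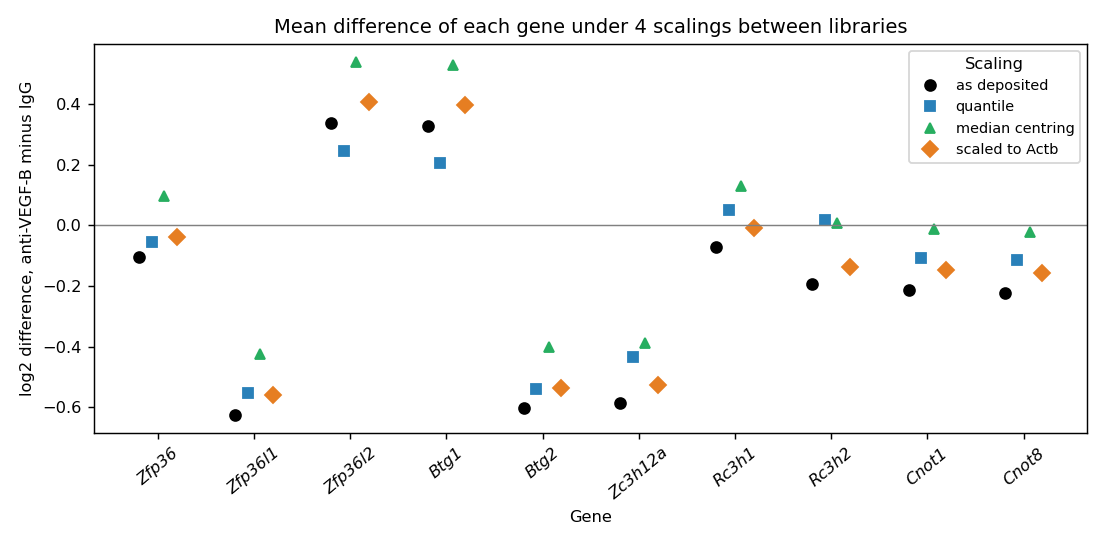
Mean log2 difference (anti–VEGF-B minus IgG) of the 10 genes with FPKM as deposited, after quantile normalization, after median centring and scaled to *Actb*. *Btg1* and *Zfp36l2* stay above 0 (0.20 to 0.54) and *Zfp36l1*, *Btg2* and *Zc3h12a* stay below it (-0.39 to -0.63), while *Zfp36*, *Rc3h1* and *Rc3h2* cross it.

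In order of FPKM in the IgG libraries, *Btg1* was followed by *Zfp36l2*, and the 2 did not overlap. *Zfp36l1*, *Btg2* and *Zfp36* came next at 35.7 to 37.5 FPKM and did not differ beyond their spread, nor did *Cnot1* and *Cnot8*, or *Rc3h1* and *Zc3h12a*. In the anti–VEGF-B libraries *Zfp36* lay above *Zfp36l1* and *Btg2* with no overlap, and *Zc3h12a* below *Rc3h1*. The coefficient of variation was smaller with anti–VEGF-B than with IgG for 8 of the 10 genes.

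As a description over the 6 libraries, *Eif5* (Pearson r = 0.994), *Hey1* (0.994) and *Mgarp* (0.992) had the pattern of log2 values most like that of *Btg1* among 8806 other tested genes, and *1600014C23Rik* (0.999), *Gripap1* (0.999) and *Tmem222* (0.998) that most like *Btg2*. For *Btg2* 1253 genes had r over 0.95, against 157 for *Btg1*. With 2 groups of 3 libraries such values largely repeat the difference between the groups.

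The other genes of these pathways were tested with limma across all 8816 genes, in lists written from general knowledge. In all genes 23.8% fell and 4.87% rose with anti–VEGF-B at an adjusted p under 0.05 (28.7% together). The falls made up 83.0% of these calls, but 50.9% after quantile normalization and 37.2% after median centring. Of 105 tested genes of the decay machinery outside the 10 members, 25 fell (23.8%) and 4 rose (3.81%), shares near those of all genes. Their median log2 difference was -0.16 against -0.15. The 25 and 4 became 8 and 14 after median centring and 11 and 6 after quantile normalization, and without anti–VEGF-B replicate 3 they were 7 and 1. For some lists, counts at an unadjusted p under 0.05 are also given below. The share of all genes at that rule was not computed, so nothing is read from those counts.

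The 3 other BTG/TOB genes that were tested, of 4 in the list, are also antiproliferative adaptors of deadenylases, and each passed the test. *Btg3* was at 37.1, 35.0 and 40.2 FPKM with IgG and 48.4, 53.1 and 51.4 with anti–VEGF-B. It rose as *Btg1* was higher (log2 difference 0.44, standard error 0.0787, adjusted p = 0.00827 from limma). *Tob2* was at 38.9, 43.1 and 36.2 FPKM with IgG and 23.4, 26.6 and 21.3 with anti–VEGF-B, and *Tob1* at 33.3, 31.9 and 31.0 and at 25.3, 25.2 and 23.6. *Tob2* fell (log2 difference -0.71, adjusted p = 0.00491 from limma) and so did *Tob1* (-0.36, adjusted p = 0.0106). *Btg3* and *Tob2* kept their calls under all 3 scalings and without any 1 library. *Tob1* did not after median centring (-0.16, adjusted p = 0.168 from limma) or when scaled to *Actb* (-0.30, 0.0622).

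Among 8 relatives of Regnase-1 and other CCCH genes, 3 fell and 0 rose in limma, with 5 lower and 0 higher at an unadjusted p under 0.05. *Zc3h12d*, which encodes Regnase-4, was at 18.7, 28.8 and 22.8 FPKM with IgG and 14.6, 12.8 and 12.4 with anti–VEGF-B (log2 difference -0.76, adjusted p = 0.00872 from limma). *Khnyn*, the gene of a cofactor of the antiviral protein ZAP, fell from 81.5 ± 12.3 to 52.4 ± 5.06 FPKM (-0.62, adjusted p = 0.00861). *Zc3h7b* fell by 0.54 on the log2 scale from a low level (adjusted p = 0.0210 from limma), but not without anti–VEGF-B replicate 1 (0.0557) or 3 (0.0687) or after quantile normalization (0.0710). *Zc3hav1*, which encodes ZAP, was the most abundant of the list, at 82.2 ± 7.80 FPKM with IgG against 70.9 ± 0.809 with anti–VEGF-B (-0.21, adjusted p = 0.0823).

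Of 17 other genes of CCR4-NOT and the poly(A) tail, 3 fell and 0 rose in limma, with the same counts at an unadjusted p under 0.05. The median log2 difference was -0.066. *Cnot9* (-0.36, adjusted p = 0.0359 from limma), *Cnot3* (-0.33, 0.0395) and *Cnot6* (-0.31, 0.0487), the last a deadenylase, were just past the threshold. None of the 3 kept its call under quantile normalization, median centring or scaling to *Actb*, and each lost it whichever anti–VEGF-B library was left out (0.0541 to 0.147). *Pabpc1*, the gene of the cytoplasmic poly(A)-binding protein, was the most abundant, at 501 ± 21.9 FPKM with IgG against 526 ± 21.1 with anti–VEGF-B (0.070, or -0.054 after quantile normalization, adjusted p = 0.488).

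Decapping and 5′ to 3′ digestion follow deadenylation. Of 20 such genes tested, 3 fell and 1 rose. *Nudt16*, which encodes a decapping enzyme, fell from 1.82, 2.60 and 1.66 FPKM with IgG to 0.709, 0.458 and 0.681 (log2 difference -0.90, adjusted p = 0.00527 from limma). *Ddx6*, a helicase that couples CCR4-NOT to decapping, fell from 42.8 ± 4.27 to 30.1 ± 4.91 FPKM (-0.50, adjusted p = 0.0176), and *Eif4enif1*, whose product binds the cap-binding protein, fell by 0.33 on the log2 scale (adjusted p = 0.0181). *Patl1*, a decapping activator, rose from 30.8 ± 2.00 to 37.8 ± 1.77 FPKM (0.29, adjusted p = 0.0275). Of these 4 genes *Nudt16* alone kept its call without any 1 library. *Ddx6*, *Eif4enif1* and *Patl1* were at an adjusted p of 0.0641, 0.0714 and 0.0580 in limma without anti–VEGF-B replicate 3. *Nudt16*, however, averaged 0.616 FPKM with anti–VEGF-B and passed the filter of 1 FPKM only through the IgG libraries. Its counting error is unknown. *Ddx6* also lost its call after median centring (-0.30, adjusted p = 0.0835 from limma), and *Eif4enif1* after median centring (-0.13, 0.233), quantile normalization (-0.20, 0.0868) and scaling to *Actb* (-0.27, 0.0963). *Lsm4* had the highest mean over both groups (0.05, adjusted p = 0.748), although *Ddx6* was above it with IgG.

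Of 16 exosome and Ski complex genes, which digest RNA from the 3′ end, 4 fell and 0 rose in limma, with 7 lower and 1 higher at an unadjusted p under 0.05. *Exosc1* fell from 1.97 ± 0.190 to 0.891 ± 0.286 FPKM (log2 difference -0.66, adjusted p = 0.00950 from limma). It passed the filter of 1 FPKM only through the IgG libraries. *Exosc4* (-0.46, adjusted p = 0.0152) and *Skiv2l2* (-0.37, 0.0224) fell too, but not after quantile normalization (0.0719 and 0.0955) or median centring (0.0503 and 0.15). *Skiv2l2* also lost its call when scaled to *Actb* (0.0652). *Exosc10* was the most abundant (0.17, adjusted p = 0.214).

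Of 14 genes of nonsense-mediated decay, 4 fell and 1 rose. The 3 lowest p among the falls belonged to *Eif4a3* (log2 difference -0.56, adjusted p = 0.00981 from limma), *Magoh* (-0.43, 0.0141) and *Rbm8a* (-0.40, 0.0155), which encode core proteins of the exon junction complex. *Eif4a3* kept its call under the 3 scalings and without any 1 library, whereas *Magoh* and *Rbm8a* were at 0.0564 and 0.0607 without anti–VEGF-B replicate 3 and at 0.135 and 0.105 after median centring. *Casc3*, another component of that complex, rose (0.22, adjusted p = 0.0474), but lost its call whichever library was left out (0.0611 to 0.139). *Upf1*, the helicase with which Regnase-1 is known to act, was the remaining fall and was looked up after the values were seen (-0.33, adjusted p = 0.0284 from limma). It did not pass under any of the 3 scalings (0.0856 to 0.254), without anti–VEGF-B replicate 1 or 3, or without IgG replicate 2 or 3 (0.0674 to 0.105).

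Of 10 microRNA silencing genes, 3 fell and 0 rose in limma, with 4 lower and 0 higher at an unadjusted p under 0.05. *Ago1* (log2 difference -0.55, adjusted p = 0.0144 from limma), *Tnrc6b* (-0.48, 0.0176), whose product recruits CCR4-NOT, and *Drosha* (-0.35, 0.0276) fell, and without anti–VEGF-B replicate 3 their adjusted p was 0.0581, 0.0622 and 0.0909. *Ago1* kept its call under the 3 scalings. *Tnrc6b* and *Drosha* lost theirs after quantile normalization (adjusted p = 0.0567 and 0.357 from limma) and median centring (0.0509 and 0.216), and *Drosha* also when scaled to *Actb* (0.0927). *Ago2* was the most abundant of the list (0.016, adjusted p = 0.909).

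Among 17 other binding proteins of transcript 3′ ends, 3 fell and 1 rose. *Arid5a*, whose product protects stem-loop transcripts against Regnase-1, was at 6.56, 9.71 and 10.4 FPKM with IgG and 3.10, 6.34 and 5.72 with anti–VEGF-B. It fell (log2 difference -0.73, adjusted p = 0.0402 from limma), though not under any of the 3 scalings (0.0673 to 0.111). When 1 library was left out the adjusted p ran from 0.0262 to 0.114. *Nanos1*, which encodes a translational repressor, fell (-0.52, adjusted p = 0.0248 from limma) but lost its call after median centring (0.0675). *Ybx1*, an abundant RNA-binding protein gene, rose from 243 ± 17.1 to 293 ± 16.2 FPKM (0.27, adjusted p = 0.0359 from limma). It lost its call without anti–VEGF-B replicate 3 (0.111) or 1 (0.11) or IgG replicate 2 (0.0962) or 3 (0.0999).

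Signals that act on the members were listed with 12 genes, of which 4 fell and 1 rose. *Akt1* (log2 difference -0.84, adjusted p = 0.0102 from limma) and *Mapkapk3* (-0.64, 0.0104) fell, as did *Mapkapk2* (-0.37, 0.0289), which encodes the kinase MK2 known to phosphorylate tristetraprolin. *Ppp2ca*, the gene of a catalytic subunit of the phosphatase PP2A, rose from 51.5 ± 2.83 to 63.4 ± 2.06 FPKM (0.29, adjusted p = 0.0190). The calls of *Mapkapk2* and *Ppp2ca* were lost without anti–VEGF-B replicate 3 (0.102 and 0.0763), and that of *Mapkapk2* also after median centring (-0.17, adjusted p = 0.210) and scaling to *Actb* (0.0834). *Malt1*, also looked up after the values were seen, was at 29.8, 37.7 and 35.8 FPKM with IgG and 29.0, 28.9 and 26.8 with anti–VEGF-B (-0.27, adjusted p = 0.0600), and passed without IgG replicate 1 (0.0188).

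A list of 28 transcripts known from the literature as targets of these proteins, or as activation transcripts with AU-rich elements, had 23 tested genes. Of these 14 fell (60.9%, against 23.8% of all genes) and 2 rose (8.70%, against 4.87%), with a median log2 difference of -0.40, or -0.24 relative to all genes. Values of some of these genes were known when the list was written, and the share is a description. After median centring 8 fell, and without anti–VEGF-B replicates 3 and 2 the falls were 8 and 9 and the rises 1 in either case. Without IgG replicate 2 the rises were also 1.

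*Tnf*, the classical target of tristetraprolin, was at 26.4, 32.7 and 26.3 FPKM with IgG and 16.8, 16.2 and 14.8 with anti–VEGF-B (log2 difference -0.79, adjusted p = 0.00471 from limma). *Nfkbid*, a target of the Roquins and Regnase-1, was at 17.6, 17.3 and 12.7 FPKM with IgG and 6.18, 8.29 and 6.73 with anti–VEGF-B (-1.06, adjusted p = 0.00488). The early activation gene *Cd69* (-0.74, adjusted p = 0.00469 from limma), *Irf4* (-1.67, 0.00488), *Pim1* (-0.69, 0.00491) and the cytokine gene *Il21* (-0.91, 0.00499) fell as well. All 6 of these genes kept their calls under the 3 scalings and without any 1 library. *Il21*, however, averaged 0.961 FPKM with anti–VEGF-B and passed the filter of 1 FPKM only through the IgG libraries. Its call is limited to that extent. *Ier3*, an early response gene and the most abundant of the list, fell from 471 ± 45.8 to 368 ± 13.4 FPKM (-0.35, adjusted p = 0.0187 from limma). It did not pass after median centring (0.376) or when scaled to *Actb* (0.0933).

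The 2 rises were *Il2* and *Nfkbiz*. *Il2* was low, at 0.801, 0.583 and 0.292 FPKM with IgG and 1.33, 1.77 and 1.42 with anti–VEGF-B (log2 difference 0.69, adjusted p = 0.0104 from limma). It passed the filter of 1 FPKM only through the anti–VEGF-B libraries. *Nfkbiz*, like *Nfkbid* an atypical inhibitor of NF-κB and a Regnase-1 target, was at 51.0, 40.2 and 46.4 FPKM with IgG and 55.3, 71.1 and 66.8 with anti–VEGF-B (0.48, adjusted p = 0.0176), but its call was lost without anti–VEGF-B replicate 2 or 3 or IgG replicate 2 (0.0515 to 0.0614). *Icos*, a costimulator gene repressed by both Roquin and Regnase-1 and named here after its values were seen, was at 73.5, 80.5 and 77.1 FPKM with IgG and 67.3, 59.8 and 61.9 with anti–VEGF-B (-0.29, adjusted p = 0.0236). Its call was lost after median centring (0.447) and when scaled to *Actb* (0.114). It was also lost without anti–VEGF-B replicate 2 or 3 or IgG replicate 2 or 3 (adjusted p = 0.0587 to 0.0809 from limma).

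**Figure D5:**
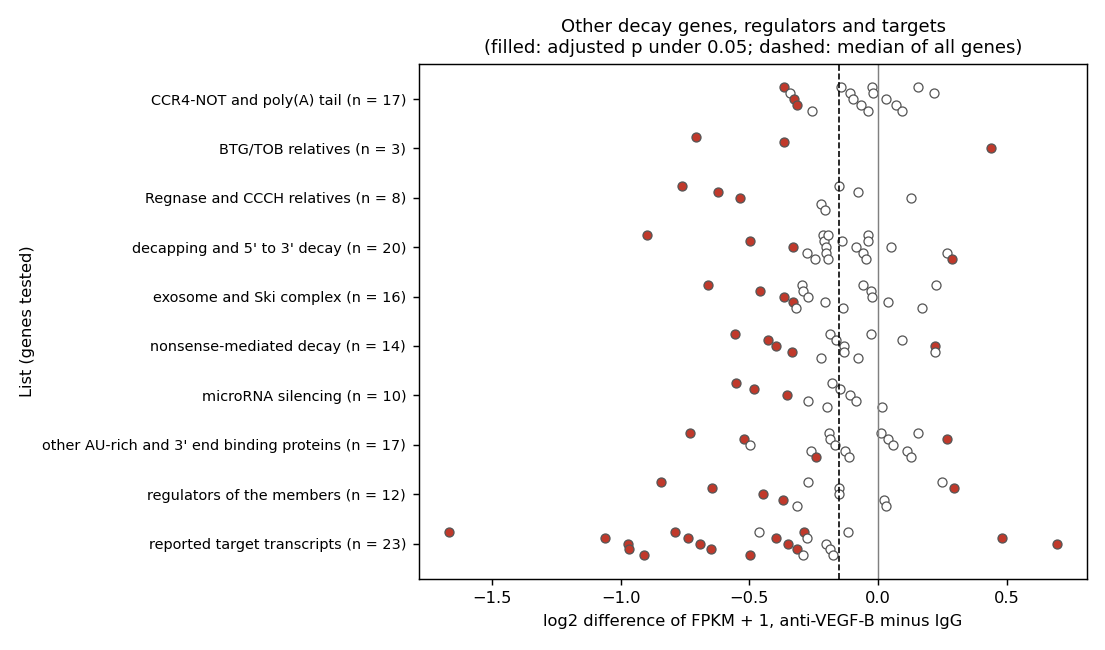
log2 difference (anti–VEGF-B minus IgG, FPKM + 1) of each tested gene in the 10 lists, 1 row per list, with filled points for an adjusted p under 0.05 in limma and a dashed line at the median of all tested genes (-0.15). The medians run from -0.066 to -0.24 except for the BTG/TOB relatives (-0.36) and the reported target transcripts (-0.40).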

How the data were processed

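The authors aligned reads of stranded total RNA libraries to GRCm38 (mm10) with hisat2 and quantified transcripts with StringTie and Ballgown. They deposited 1 table named as raw data, but its values are not whole and were used as FPKM. Low values under 0.3 FPKM shared no step worth 1 read (at most 0.935% of genes had a common ratio between a pair of libraries), so that no counts were recovered and the replicate spread is the only error. Columns were matched to samples by label.

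With R 4.3.3 and limma 3.58.1, log2(FPKM + 1) was compared between the groups in 1 fit of all 6 libraries (moderated with a trend, no covariate). Genes averaging under 1 FPKM were left out, and p were Benjamini-Hochberg adjusted over the 8816 remaining, with calls made under 0.05. The scale understates differences of low genes. The method was tested on simulated data. The members, lists and tests were chosen with earlier results of these data known. Named were all members and, from each list, all genes where 6 or fewer were tested, otherwise the 3 lowest p in each direction (6 for targets, 4 for regulators) and the most abundant gene over both groups. *Icos*, *Malt1* and *Upf1* fall outside this rule, and some genes that the rule names are not reported here.

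Alternatives changed the pseudocount, filter, scaling, moderation, call rule, block and libraries.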

Additional observations from a re-analysis of the deposited data

How the results depend on the processing

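With no moderation of the variance all 43 called genes named from the lists lost their call in limma (adjusted p from 0.0657 to 0.183), and 15 kept it in every other fit that tested them, among them *Tob2*, *Zc3h12d*, *Khnyn*, *Nudt16*, *Tnf*, *Nfkbid* and *Il2*. Of the 43, 22 lost it under at least 1 of the 3 scalings and 26 without at least 1 library. None of the 43 changed sign. *Nudt16*, *Exosc1*, *Il21* and *Il2*, all among the 15, were not tested at a mean of at least 5 FPKM. The first 3 averaged 0.616, 0.891 and 0.961 FPKM with anti–VEGF-B, and *Il2* averaged 0.559 with IgG. They passed the filter of 1 FPKM only through the group where they were higher. FPKM hold no depth, so counting error of genes near 1 FPKM is unknown.

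All genes called lower and higher numbered 2099 and 429. The lower count was 989 with a mean of at least 5 FPKM, and the 2 counts were 913 and 880 by quantile, 807 and 1365 by median scaling, 1309 and 365 scaled to *Actb*, 6 and 6 with no moderation, and 998 and 123 at an unadjusted p under 0.05 with a log2 change over 0.5. Leaving out 1 library gave 695 to 2071 and 164 to 396. Decay machinery genes called lower were 16 with at least 5 FPKM, 11 after quantile normalization, 8 after median centring, 14 scaled to *Actb*, 0 with no moderation (35 at an unadjusted p under 0.05) and 10 under the unadjusted rule. Those called higher were 14 after median centring, 0 with no moderation (6 unadjusted) and 0 under the unadjusted rule (7 with no limit on the change). Without 1 library the counts ran from 7 to 23 and from 1 to 3. Target transcripts called lower were 8 after median centring, 0 with no moderation (13 unadjusted) and 9 under the unadjusted rule, and those called higher were 1 with at least 5 FPKM, 0 with no moderation (2 unadjusted) and 1 under the unadjusted rule. Without 1 library they ran from 8 to 15 and from 1 to 2.

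The log2 difference of *Btg1* was 0.20 with quantile normalization and 0.53 with median centring (0.27 to 0.38 without 1 library), that of *Btg2* -0.40 after median centring (-0.69 to -0.47), and that of their ratio 0.76 to 1.05 without 1 library. Signs turned for *Zfp36* (0.097 after median centring), *Rc3h1* (0.052 after quantile normalization, 0.13 after median centring), *Rc3h2* (0.017 and 0.0092), *Pabpc1* (-0.054 after quantile normalization), *Lsm4* (-0.015 when anti–VEGF-B replicate 3 was left out, -0.022 for IgG replicate 2, at most 0.15 when any 1 library was left out) and *Ago2* (-0.029 when anti–VEGF-B replicate 2 was left out, -0.082 for IgG replicate 1, at most 0.069 when any 1 was). Apart from the scalings, which shift all genes, and the fits with fewer genes or libraries, the cause was not tested. Same-numbered libraries of the 2 groups deviated together weakly or not at all (r = -0.030, 0.11 and 0.089). The value for replicate 2 was the highest of all pairs between the groups. However, anti–VEGF-B replicate 1 correlated better with IgG replicate 2 (0.057) than with its own number, and the numbers were not taken as pairs. With the replicate block 24 machinery genes were called lower and 4 higher, and 16 targets lower and 2 higher, and 4 of the 43 calls were lost.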
